A study of Mus musculus with 36 samples.

Results

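The comparison described here sets skeletal muscle of young wild type mice against liver and white adipose tissue of the same mice, across all genes that the array names singly. It uses 9 of the series' 36 arrays, which are 3 of muscle, 3 of liver and 3 of adipose from 5-month wild type males, and it covers 21789 probe sets that stand for 19938 genes. The series also holds males with 1 inactivated Myc allele (Myc+/-) at 5 and 24 months and 24-month wild type males, all C57Bl/6, and these were used here only to see whether the muscle pattern recurred. The young wild type RNA came from 6 mice, pooled in equal amounts into 1 pool per tissue, and 3 technical arrays were hybridised per pool (Affymetrix Mouse Gene 1.0 ST). Pools of the other cohorts held 5 mice (Myc+/-, 5 months), 8 mice (Myc+/-, 24 months) and 5 mice (wild type, 24 months). The labels do not say which muscle or which fat depot was taken, nor which of 2 ways of homogenizing each tissue sample had. Of the kit used to label the RNA they give conflicting names, a 3' IVT kit and a whole-transcript one.

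Skeletal muscle is built from long multinucleated fibres filled with sarcomeres, in which myosin thick filaments slide along actin thin filaments anchored at the Z disc. A nerve impulse at the neuromuscular junction spreads along the fibre membrane and releases calcium from the sarcoplasmic reticulum, which starts contraction, and calcium pumps then end it. Fibres pay for this with ATP from phosphocreatine, glycogen, glucose and fatty acids, whereas liver and adipose tissue make, store and export glucose and lipids.

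A value is a log2 expression level, so a difference of 1 between tissues is 2-fold. The muscle difference of a gene is its mean level in muscle minus the mean of its levels in liver and adipose. Since there was 1 young wild type pool per tissue, the SD or SE given with a young wild type value is array-to-array error and no p-value belongs to that contrast alone. The test is a limma fit over the 12 pools of the 4 cohorts with the cohort as a block, in which a gene is called at an adjusted p under 0.05 and a mean difference of at least 2-fold. For gene lists, the members called are those of this test over the 4 cohorts, while medians and single differences are of young wild type mice unless said otherwise. In bulk tissue, fewer cells of a type and less RNA per cell cannot be told apart. As a gauge of background, the 95th percentile of 1027 olfactory receptor genes lay at 6.25 in muscle, 6.50 in liver and 6.27 in adipose. The median of all genes was above it in each tissue, at 7.52, 7.39 and 7.56 in the same order, so passing the gauge is common.

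In young wild type muscle 1533 genes were at least 2-fold higher than the mean of liver and adipose (7.69% of all genes) and 1510 were at least 2-fold lower (7.57%), which as probe sets is 1684 higher (7.73%) and 1600 lower (7.34%). Against each of both tissues separately, 979 genes were at least 2-fold higher (4.91%) and 469 were lower (2.35%). By the same rule liver had 1163 genes higher and 1160 lower than both other tissues, and adipose had 720 higher and 198 lower. The upper side reached much further than the lower one: 181 genes lay 4 or more above on the log2 scale and 55 lay 6 or more above, whereas 18 lay 4 or more below and 0 lay 6 below. This measure treats the sides unlike, since a gene high in only 1 other tissue is averaged with the low one. Fbp1, for example, differed by -7.26 against liver and -0.07 against adipose, which gave -3.66. The median difference over all genes was -0.07, and the middle 90% of probe sets lay between -1.32 and 1.37. Over the 4 cohorts limma called 1473 genes higher in muscle (7.39%) and 1567 lower (7.86%), or 1629 (7.48%) and 1659 (7.61%) probe sets. Which direction holds more probe sets depends on the scaling: with arrays shifted to equal ribosomal protein medians, 1435 were 2-fold higher and 1899 lower than the mean of both tissues in young wild type muscle.

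**Figure D1:**
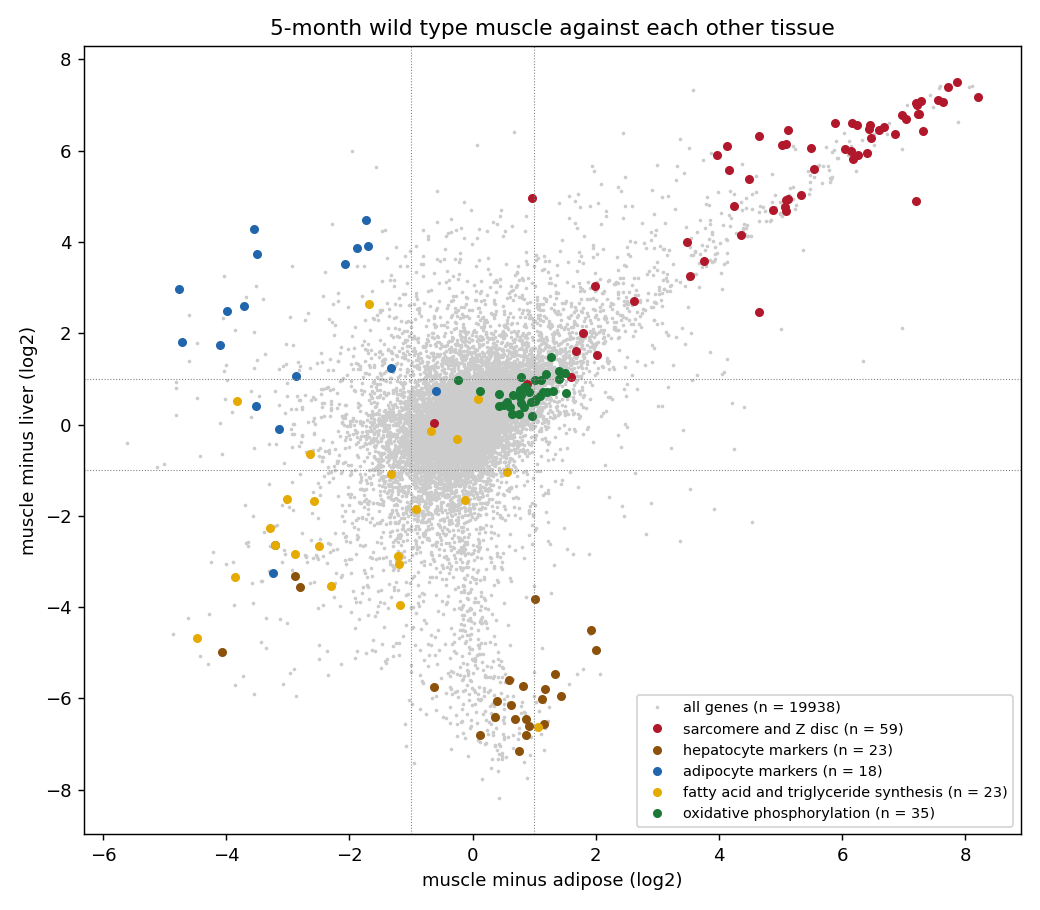
Muscle minus liver (vertical axis, log2) against muscle minus adipose (horizontal axis, log2) for each of 19938 genes in 5-month wild type mice, with the dotted lines at 2-fold. The sarcomere and Z disc genes run up the diagonal, oxidative phosphorylation genes sit near 1 on both axes, and most hepatocyte and adipocyte markers drop away along 1 axis each.

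The genes that stood furthest above both other tissues were contractile, calcium-handling and energy genes. Parvalbumin (Pvalb), the calcium buffer of fast fibres, led with 14.36, 14.36 and 14.39 on the 3 muscle arrays, against 6.85, 6.94 and 7.05 on the liver arrays and 6.22, 6.26 and 6.31 on the adipose arrays. Its muscle difference was 7.76 ± 0.03 (SE over arrays, 3 per pool), and over the 4 cohorts it averaged 8.02 ± 0.10 (SE, limma, 4 cohorts, adjusted p = 2.64e-11). No muscle array overlapped an array of either other tissue for any of the 20 leading genes. They were picked for this difference on the same arrays, so that is no further evidence. Mylk4, a kinase of the myosin light chain kinase family, read 13.11, 13.10 and 13.15 in muscle, against 5.71, 5.79 and 5.68 in liver and 5.13, 4.91 and 5.13 in adipose, a muscle difference of 7.73 ± 0.04. Xirp2, an actin-binding protein of the Z disc region, followed with 12.87, 12.87 and 12.93 in muscle, against 5.54, 5.40 and 5.20 in liver and 4.87, 5.11 and 5.06 in adipose.

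The rest of the leading 20 had differences from 7.69 down to 6.88. They held the fast myosin heavy chains Myh4, Myh1 and Myh2, whose coding sequences are near-identical, so that their probes may share signal. They also held the Z disc proteins Myot, Myoz2 and Myoz1, the thin filament proteins Tnnc2 and Tmod4, the giant spring protein Ttn and the myosin-binding protein Mybpc2. Atp2a1, the calcium pump of fast sarcoplasmic reticulum, read 14.50, 14.51 and 14.57 in muscle, against 7.72, 8.14 and 7.84 in liver and 6.68, 6.61 and 6.64 in adipose, which is 153-fold. Casq1, which stores calcium inside the reticulum, differed by 7.02 ± 0.06. The metabolic members were Ampd1, which deaminates AMP in working fibres, Ckmt2, the mitochondrial creatine kinase, and Ppp1r3a, which tethers protein phosphatase 1 to glycogen. Smpx, a small sarcolemmal protein, and Apobec2, a muscle member of the cytidine deaminase family, completed the set. In 12 of these 20 genes both liver and adipose were at or under the background gauge, so the size of the difference there is a distance from background and not a ratio of 2 measured levels. That was so for 172 of the 979 genes higher than both tissues (17.6%).

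**Figure D2:**
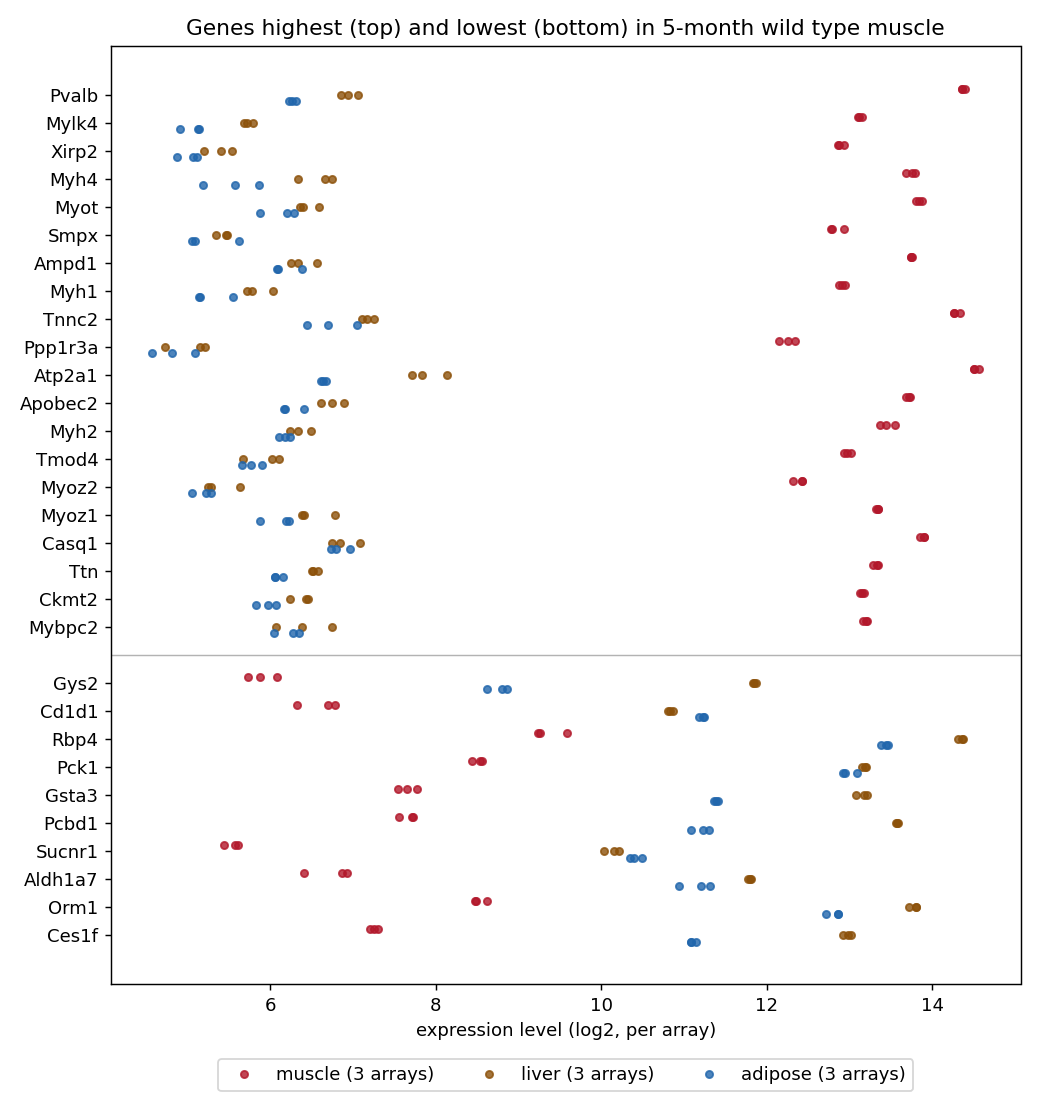
Log2 level (horizontal axis) of the 20 genes highest and the 10 genes lowest in 5-month wild type muscle relative to both other tissues, 1 point per array and 3 arrays per tissue. For the upper 20 genes all muscle points lie right of 12, and for the lower 10 genes all muscle points lie left of every liver and adipose point.

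Promoter windows from RefSeq (GRCm38.p6, 250 bases before to 50 after a start site) were searched on both strands for motifs of factors known to drive muscle genes: the MEF2 motif, the CArG box of serum response factor, CAGCTG (an E-box that MyoD-family factors bind) and CATTCC (the core that TEAD factors bind). CATTCC may share end letters with any of the others, and those cannot overlap each other. Of the 177 windows of genes at least 16-fold higher in muscle, 11.9% held a MEF2 motif, against 3.19% of all 32851 windows and 1.74% of the 460 windows of genes lower than both tissues. A CArG box stood in 6.21% of the windows of the 16-fold genes, against 1.63% of all windows. CAGCTG stood in 35.6% against 16.3%, and CATTCC in 19.2% against 14.7%. Windows of all genes higher than both tissues lay between, with 5.81% for MEF2 and 21.3% for CAGCTG. Of the leading 20 genes 17 had a window, and 13 of these held at least 1 of the 4 motifs. The matching share of all windows was not counted, so the 13 has no baseline. CAGCTG alone stood in 16.3% and CATTCC in 14.7% of all windows. A match is a description of the letters and not a binding site.

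The windows shown are those of the leading 20 genes that hold both a MEF2 motif and CAGCTG, in the gene's own direction from 5′ to 3′, with every motif found in capitals. Mylk4 lies on the minus strand at chr13:32783915-32784214, Myh4 on the plus strand at chr11:67237562-67237861, Ppp1r3a on the minus strand at chr6:14755225-14755524 and Myoz2 on the minus strand at chr3:123034938-123035237. The Myh4 window is the one that holds all 4 motifs, in the order CATTCC, MEF2, CArG and CAGCTG. In the other windows the MEF2 motif comes first and CAGCTG after it.
Mylk4: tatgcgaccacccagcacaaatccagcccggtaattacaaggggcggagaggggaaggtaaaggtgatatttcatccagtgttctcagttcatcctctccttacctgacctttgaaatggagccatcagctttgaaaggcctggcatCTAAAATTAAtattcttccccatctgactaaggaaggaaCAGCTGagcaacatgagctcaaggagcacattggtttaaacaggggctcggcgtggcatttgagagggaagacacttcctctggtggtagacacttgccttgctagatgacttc
Myh4: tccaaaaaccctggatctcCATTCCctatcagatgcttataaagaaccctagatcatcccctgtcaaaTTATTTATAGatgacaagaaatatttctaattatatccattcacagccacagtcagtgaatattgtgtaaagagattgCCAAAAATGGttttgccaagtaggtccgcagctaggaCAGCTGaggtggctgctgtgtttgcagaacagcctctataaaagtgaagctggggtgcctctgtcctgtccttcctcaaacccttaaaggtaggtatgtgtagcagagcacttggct
Ppp1r3a: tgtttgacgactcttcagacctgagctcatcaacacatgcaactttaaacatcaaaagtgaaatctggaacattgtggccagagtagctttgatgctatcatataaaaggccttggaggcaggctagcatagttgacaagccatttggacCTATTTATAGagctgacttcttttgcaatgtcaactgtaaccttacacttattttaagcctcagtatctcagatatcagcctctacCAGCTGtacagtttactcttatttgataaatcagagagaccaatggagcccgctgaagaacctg
Myoz2: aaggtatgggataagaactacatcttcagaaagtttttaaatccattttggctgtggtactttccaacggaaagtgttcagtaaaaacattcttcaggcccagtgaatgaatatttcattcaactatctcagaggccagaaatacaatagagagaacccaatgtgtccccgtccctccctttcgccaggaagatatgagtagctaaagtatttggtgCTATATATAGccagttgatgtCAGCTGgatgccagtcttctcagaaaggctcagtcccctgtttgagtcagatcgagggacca

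Contractile genes formed the highest groups. Of 17 thick filament genes measured, 16 were called higher in muscle and 0 lower, with a median young wild type difference of 6.51 against -0.07 over all genes. Beside the fast heavy chains, the regulatory light chain Mylpf (6.61), the slow light chains Myl2 (6.52) and Myl3 (6.51) and the M-band protein Myom1 (6.38) stood at much the same height. Myh8, the perinatal heavy chain, was lowest with 0.89 and Myh3, the embryonic heavy chain, followed with 1.32, which is close to background at 6.85 ± 0.33 in muscle (SD, 3 arrays). Slow-fibre Myh7 reached 11.73 ± 0.02 in muscle, against 6.69 ± 0.09 in liver and 6.40 ± 0.11 in adipose, so fast and slow heavy chains alike were far above background in this pool. Of the 17 thin filament genes 16 were called higher, with a median of 5.77, led by Tnnc2 (7.33), Tmod4 (7.12), Tnnt3 (6.87) and Tnni2 (6.37), which are fast-fibre calcium-sensing and capping proteins. Skeletal actin, Acta1, averaged 14.63 ± 0.04 in muscle, against 8.48 ± 0.09 in liver and 9.55 ± 0.06 in adipose. The exception was Tpm3, which encodes slow and cytoplasmic tropomyosins and differed by -0.29. All 25 Z disc and cytoskeleton genes were called higher, from 1.76 for Kbtbd13 to 7.69 for Xirp2, with a median of 5.49.

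The apparatus that turns an impulse into contraction was nearly as distinct. Of 25 genes of excitation-contraction coupling 20 were called higher and 0 lower, with a median of 4.33. After Pvalb, Atp2a1 and Casq1 came the calcium release channel Ryr1, with 13.16, 13.12 and 13.17 in muscle, against 6.72, 6.96 and 6.70 in liver and 6.54, 6.75 and 6.64 in adipose. Triadin (Trdn), which couples that channel to calsequestrin, had 19 probe sets on the array whose differences ran from 3.95 to 8.82, the highest of any probe set. Of 18 genes of membrane excitability and the neuromuscular junction 14 were called higher, with a median of 2.45. Musk, the receptor kinase that organizes the junction, differed by 4.60 ± 0.08, the chloride channel Clcn1 by 4.56 and the acetylcholine receptor subunit Chrna1 by 3.78. The fetal receptor subunit Chrng (-0.09) and Agrn (-0.18), which nerve and muscle both secrete, did not pass 2-fold. In the dystrophin complex and sarcolemma list 13 of 15 genes were called higher with a median of 2.03, led by Smpx (7.50), the sarcoglycan Sgca (6.04) and the Popeye protein Bves (5.88). Utrn, the widely expressed relative of dystrophin, differed by -0.38.

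**Figure D3:**
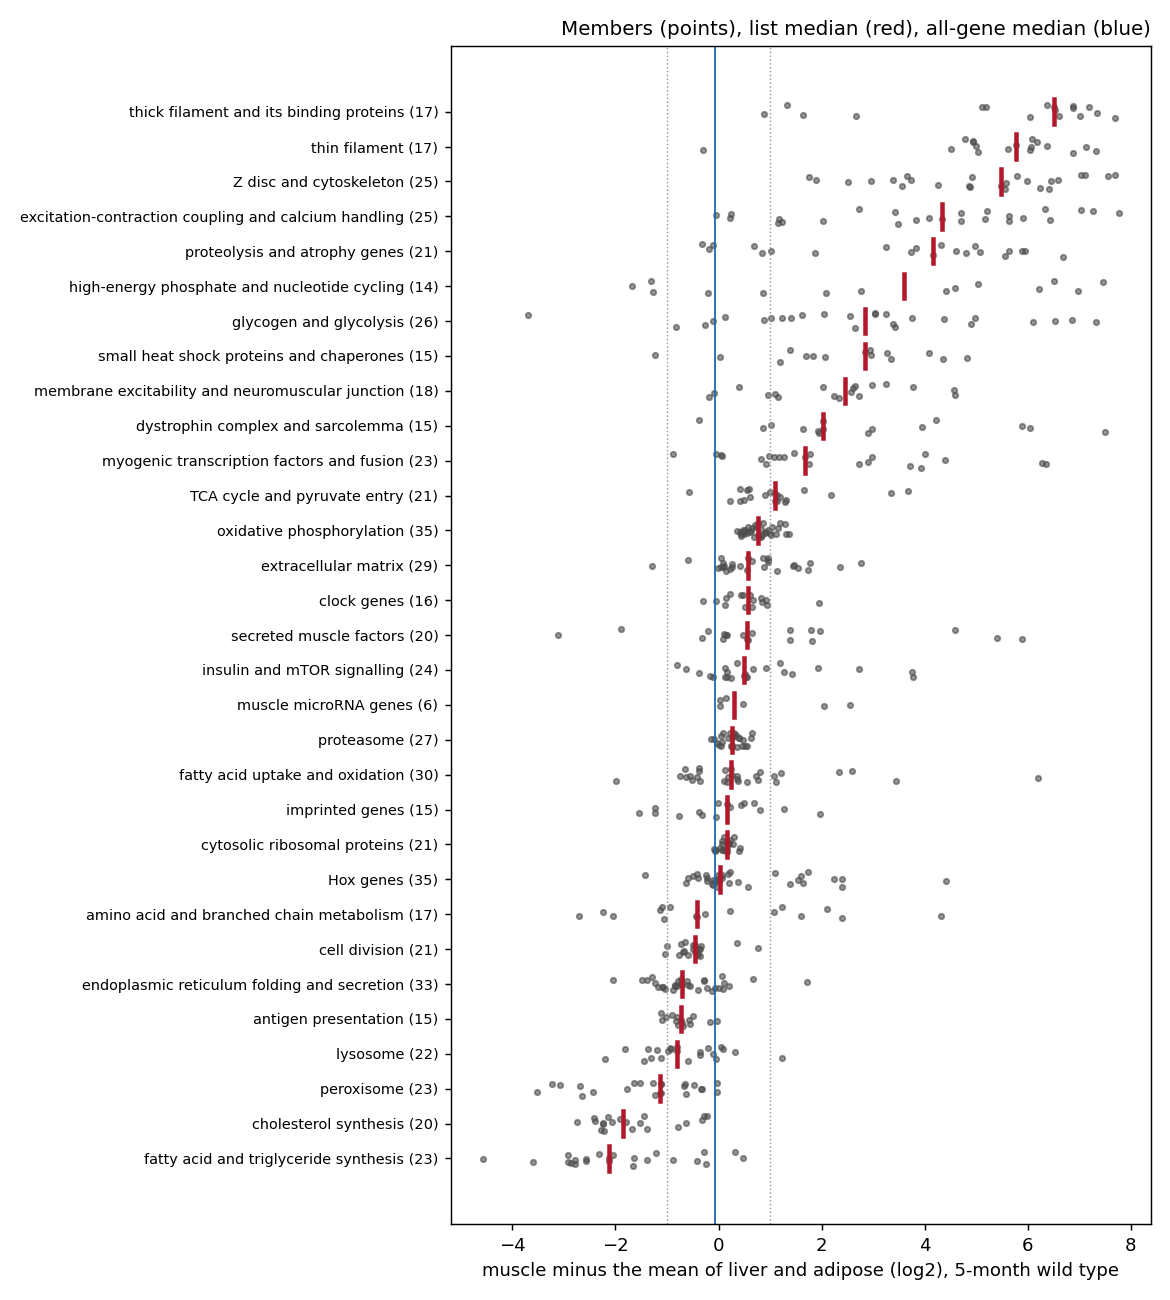
Muscle difference (horizontal axis, log2) of every measured member of each gene list in 5-month wild type mice, 1 point per gene, with the number of members in brackets, the list median in red and the median of all genes in blue. Contractile lists sit at the right with medians of 5.49 to 6.51, housekeeping lists near 0, and lipid synthesis lists at the left with medians of -2.12 and -1.85.

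Among the regulators of muscle identity, 16 of 23 transcription and fusion genes were called higher and 1 lower, with a median of 1.68. Tbx15, a T-box factor of fast glycolytic fibres, read 11.47, 11.40 and 11.58 in muscle, against 5.26, 5.32 and 4.99 in liver and 5.20, 5.07 and 4.87 in adipose. Myf6, the myogenic factor of mature fibres, read 12.37, 12.34 and 12.47 in muscle, against 6.12, 5.93 and 6.43 in liver and 6.11, 6.01 and 6.11 in adipose. Both were high on every muscle array and near background elsewhere. Eya1, a transcriptional cofactor of myogenesis, differed by 4.40 and Mef2c by 4.01, while the related myogenic factors Myod1 and Myog differed by 2.98 and 0.83. The fusion genes Mymk (-0.04) and Mymx (0.05) did not differ by 2-fold. Prox1, known in liver and in slow fibres, was called lower against the mean, but its young wild type levels were 7.63 in muscle, 10.71 in liver and 6.31 in adipose. Of 10 satellite cell genes 4 were called higher and 1 lower, and Pax7, which marks these stem cells, read 7.64 ± 0.19 in muscle, against 7.23 ± 0.29 in liver and 6.93 ± 0.20 in adipose (SD, 3 arrays), with a young wild type difference of 0.57.

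Homeobox genes of the HOX clusters differed from member to member. Of 35 measured, 10 were called higher and 0 lower, while the median was 0.02 and turned to -0.10 when arrays were shifted to equal ribosomal protein medians. The 10 were Hoxc10 (4.41), Hoxd10 and Hoxc11 (2.40 each), Hoxd8 (2.24), Hoxa9 (1.73), Hoxa10 (1.64), Hoxa13 (1.59), Hoxc9 (1.55), Hoxd9 (1.39) and Hoxa11 (1.10). They belong to the A, C and D clusters, whose posterior genes pattern the limb and trunk, and no gene of the B cluster was among them. Hoxc10 read 10.37, 10.35 and 10.31 in muscle, against 5.95, 6.00 and 6.00 in liver and 6.13, 5.67 and 5.86 in adipose.

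Among genes that feed contraction, the muscle forms of enzyme families stood highest. Of 26 glycogen and glycolysis genes 19 were called higher and 1 lower, with a median of 2.84. Pygm, the muscle glycogen phosphorylase, read 14.04, 13.94 and 14.13 in muscle, against 7.26, 7.54 and 7.49 in liver and 7.68, 7.61 and 7.48 in adipose, which is 92.1-fold. The liver phosphorylase Pygl went the other way, with 7.73, 7.45 and 7.47 in muscle, against 11.84, 11.77 and 11.81 in liver and 10.68, 10.68 and 10.67 in adipose. Phosphoglycerate mutase Pgam2 differed by 6.87 and the glycolytic enzyme Eno3 by 6.10. Of 14 genes of high-energy phosphate cycling 9 were called higher and 2 lower, with a median of 3.59. Creatine kinase Ckm was 90.5-fold higher and myoglobin (Mb), the oxygen store of fibres, differed by 6.22, while Gamt, which completes creatine synthesis, was lower by a difference of -1.68 and was called lower.

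Forms of 47 gene families were listed, and 45 families had a measured member. A form known from muscle was set beside other forms of any kind, from widespread ones to the liver form Gys2 and the sarcomeric Actn2. Of 43 measured muscle forms 42 were at least 2-fold higher in young wild type muscle and 41 were called higher, with a median of 4.90. Of 59 other forms 8 were called higher and 20 lower, with a median of -0.52. In 36 of the 41 families with both kinds measured, the muscle form stood at least 2-fold further up than every other form. In 17 families a muscle form was 2-fold up while another form was 2-fold down, both against the mean of liver and adipose. Glycogen synthase was such a pair, with Gys1 at 3.38 and the liver form Gys2 at -4.41. So were pyruvate kinase, with Pkm at 3.24 and Pklr at -2.64, and the glucose transporters, with insulin-responsive Slc2a4 at 3.75 and liver Slc2a2 at -3.08. Pklr and Slc2a2 were low against liver (-5.01 and -5.86) but not 2-fold lower than adipose (-0.27 and -0.29). For Pkm a further probe set gave 2.33.

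Subunits of the respiratory chain were split by form as well. Cox6a2, the muscle form of a cytochrome oxidase subunit, read 13.69, 13.71 and 13.84 in muscle, against 8.06, 8.40 and 8.08 in liver and 7.59, 7.48 and 7.51 in adipose. Its widespread counterpart Cox6a1 read 10.36, 10.27 and 10.30 in muscle, against 12.40, 12.40 and 12.43 in liver and 12.29, 12.26 and 12.08 in adipose. The subunit pairs Cox8b (5.46) and Cox8a (-1.20) and the nucleotide carriers Slc25a4 (4.41) and Slc25a5 (-1.32) were split likewise. The translation factor Eef1a2 differed by 5.48, against -0.73 for Eef1a1. The 5 of 41 families in which the muscle form did not stand 2-fold further up than every other form were lactate dehydrogenase, branched chain aminotransferase, alpha actinin, caveolin and junctophilin. In lactate dehydrogenase Ldhb differed by 3.42 and Ldha, named as the muscle form, by 1.02, and in branched chain aminotransferase Bcat2 differed by 0.23. In alpha actinin the sarcomeric forms Actn3 (6.41) and Actn2 (6.46) were equally far up, while Actn1 (-0.56) and Actn4 (-0.71) were below the other tissues' mean. The muscle form Cav3 differed by 2.02 and Cav1 by 1.39, and the junctophilins Jph1 and Jph2 by 4.70 and 4.09. Tmod1 had 1 probe set at 4.94 and another at 0.25.

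**Figure D4:**
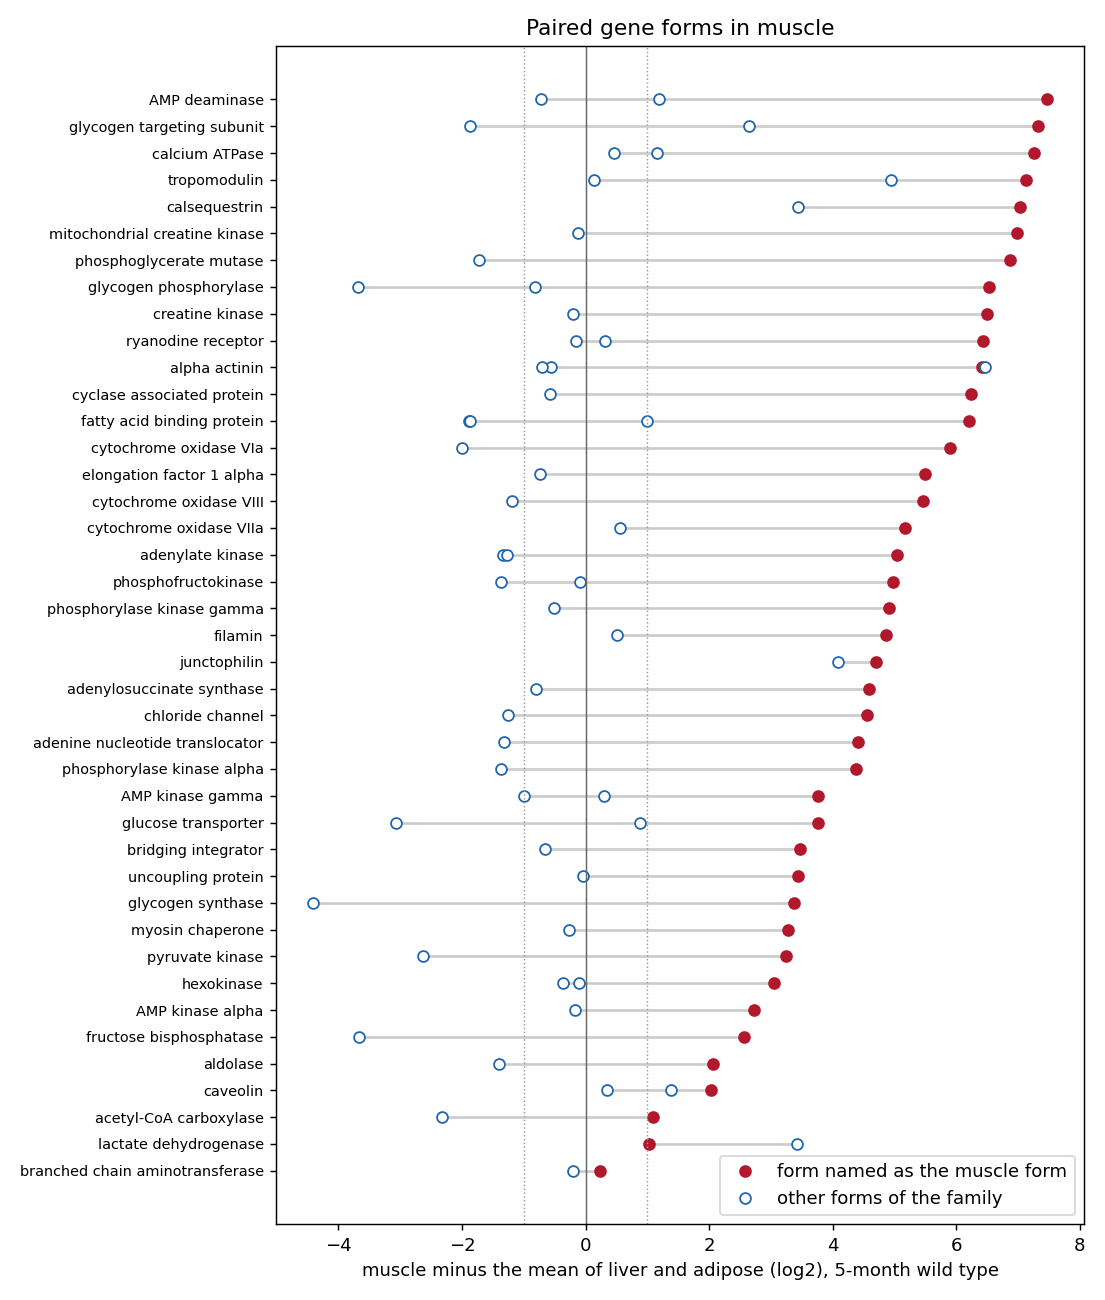
Muscle difference (horizontal axis, log2) of the muscle form (filled) and of the other forms (open) in each of 41 gene families of 5-month wild type mice, with dotted lines at 2-fold. The filled points lie right of 1 in every family except branched chain aminotransferase (0.23), and an open point lies further right in lactate dehydrogenase and level with the filled one in alpha actinin.

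Oxidative genes as such differed far less than these forms. All 35 measured oxidative phosphorylation genes lay above 0, from 0.36 to 1.38, with a median of 0.76, and 8 were called higher. The largest differences were those of Ndufb8 (1.38) and Cox5a (1.31), subunits of complexes I and IV. Of 21 TCA cycle and pyruvate entry genes 11 were called higher and 0 lower, with a median of 1.09. Pdk4, the kinase that shuts pyruvate out of the cycle, differed by 3.68 and Pdp1, the phosphatase that reverses this, by 3.35, and Idh3a, a cycle enzyme subunit, by 2.18. Fatty acid oxidation had a median of 0.25 over 30 genes with 6 called higher and 1 lower. The extremes were Fabp3, the fatty acid carrier of muscle, with 13.23, 13.10 and 13.17 in muscle, against 6.64, 6.81 and 6.92 in liver and 7.14, 7.11 and 7.16 in adipose, and Cpt1a, the liver form of the mitochondrial entry enzyme, with a difference of -1.99. The coactivator Ppargc1a differed by 2.59 and the carrier Ucp3 by 3.44.

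Protein turnover and protein-folding genes of muscle were also high. Of 21 proteolysis and atrophy genes 16 were called higher and 0 lower, with a median of 4.17, led by the ubiquitin ligase adaptor Asb5 (6.68), its relative Asb14 (5.94), myostatin (5.88) and Usp13 (5.65). Fbxo32 and Trim63, the ligases that rise in wasting muscle, differed by 4.17 and 5.07, whereas their regulators Foxo1 (-0.32) and Foxo3 (-0.18) did not reach 2-fold. The core proteasome, at a median of 0.26 over 27 genes, had 0 calls in either direction. Of 15 small heat shock and chaperone genes 12 were called higher and 1 lower, with a median of 2.84. Smyd1 and Unc45b, which help myosin fold and assemble, differed by 4.82 and 3.27, and Hspb7 and Hspb6 by 4.35 and 4.09, while Hsp90aa1 was called lower with -1.23.

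Secreted and signalling genes were mixed. Of 20 secreted factors 8 were called higher and 2 lower, with a median of 0.56. Myostatin (Mstn), which limits muscle growth, read 11.46, 11.51 and 11.33 in muscle, against 5.41, 5.86 and 5.51 in liver and 5.64, 5.38 and 5.50 in adipose. Ostn, a natriuretic peptide-related factor, differed by 5.39 ± 0.12. On the low side, Igf1, which liver secretes, differed by -1.90 and Angptl4, an inhibitor of lipoprotein lipase, by -3.11. Of 24 insulin and mTOR signalling genes 7 were called higher, among them Prkag3 (3.77) and Prkaa2 (2.72), subunits of AMP-activated kinase, and Tbc1d1 (1.93), which gates glucose transporter traffic. Insr and Mtor themselves differed by -0.38 and -0.10. Imprinted genes had a median of 0.17 with Igf2, a fetal growth factor, at 1.98, and amino acid metabolism a median of -0.41 with 6 called higher and 3 lower (6 each way at 2-fold in young wild type mice), from 4.31 for Smox, which oxidizes spermine, to -2.70 for Abat, which degrades GABA. Of 16 clock genes Bhlhe41 alone passed 2-fold in young wild type muscle, at 1.95, with a list median of 0.57, while 6 were called higher over the 4 cohorts.

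Of 297 microRNA genes on the array 6 were 2-fold higher than both tissues in young wild type muscle, against 979 of all 19938 genes (4.91%). Among the 6 were genes of microRNAs known for their abundance in muscle, with Mir1a-2 at 4.40 ± 0.13, Mir133a-1 at 3.59 ± 0.09 and Mir133a-2 at 2.55 ± 0.17 (SE over arrays). Mir181b-2 (1.90) and Mir1839 (1.37) were the others above the background gauge in muscle, and all of these were under it in liver and adipose. Mir1a-1, at 5.55 in muscle, 3.51 in liver and 3.49 in adipose, was under the gauge in all 3 tissues, as 7 of the 979 genes higher than both tissues were under it in muscle. Mir206, also known from muscle, differed by 0.47. These levels do not separate primary, precursor and mature RNA.

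The muscle differences of the 10 lowest genes ran from -4.41 to -4.78. Pck1, which starts glucose and glyceride-glycerol synthesis, read 8.56, 8.53 and 8.44 in muscle, against 13.15, 13.20 and 13.19 in liver and 13.10, 12.95 and 12.92 in adipose, a difference of -4.57 ± 0.05. Rbp4, the plasma retinol carrier, read 9.58, 9.25 and 9.23 in muscle, against 14.36, 14.31 and 14.37 in liver and 13.38, 13.46 and 13.44 in adipose. Every muscle array lay below every array of both other tissues for all 10, which were picked for this difference on the same arrays. The others were the carboxylesterase Ces1f, the acute phase protein Orm1, the dehydrogenase Aldh1a7, the succinate receptor Sucnr1, the pterin enzyme Pcbd1, the glutathione transferase Gsta3, the lipid-presenting molecule Cd1d1 and Gys2. In 2 of the 10 the muscle level was at or under the background gauge.

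Of 23 fatty acid and triglyceride synthesis genes 16 were called lower and 0 higher, with a median of -2.12. Thrsp, a lipogenic regulator, differed by -3.60, Agpat2, an acyltransferase of glyceride synthesis, by -2.92, and Fasn, the fatty acid synthase, by -2.78. Of 20 cholesterol synthesis genes 15 were called lower and 0 higher, with a median of -1.85. Insig1, the sterol sensor, read 9.54, 9.57 and 9.50 in muscle, against 12.79, 12.81 and 12.79 in liver and 11.78, 11.78 and 11.70 in adipose, and Cyp51, a demethylase of the pathway, differed by -2.42. This list lay lower against liver (median -2.86) than against adipose (-0.84). Of 23 peroxisome genes 13 were called lower and 0 higher, down to -3.52 for the thiolase Acaa1b. Lysosome genes had 10 of 22 called lower, endoplasmic reticulum genes 7 of 33 and antigen presentation genes 4 of 15, with medians of -0.81, -0.70 and -0.72. Cytosolic ribosomal protein genes had a median of 0.16 with 0 of 21 called in either direction, and shifting the arrays to equal medians of this list moved every muscle difference by -0.13. Cell division genes had 2 of 21 called lower and 0 higher.

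The labelled tissue was checked against markers of other cells. All 17 thick filament genes were above the background gauge in muscle, and their summed linear level per array was 115230 to 122677 in muscle, 1592 to 1858 in liver and 2086 to 2375 in adipose. Of 13 cardiac markers 3 were called higher and 0 lower, which were Myl4 (1.99), also known from embryonic muscle, the heavy chain Myh6 (1.18) and the pacemaker channel Hcn4 (1.05). The list summed to 3070 to 3202 per muscle array, 1944 to 2105 per liver array and 2122 to 2192 per adipose array, with 11 above the gauge in muscle and 9 in each other tissue. Ryr2 and Tbx5 did not exceed it in muscle, and Nppa read 6.45 in muscle, 6.69 in liver and 6.21 in adipose. The part of cardiac cells was not tested. The median of that list, 0.10, turned to -0.02 when arrays were shifted to equal ribosomal protein medians. Tendon and fibroblast genes were high in muscle: 10 of 17 were called higher and 0 lower, and 15 were 2-fold higher in young wild type mice, with a median of 1.77. Thbs4, a matrix protein of tendon, differed by 5.48, the cartilage and tendon protein Chad by 4.65, Tnmd, the tendon marker tenomodulin, by 3.90 and Kera by 3.86, while the extracellular matrix list had 5 of 29 called higher and 1 lower, against 8 and 1 at 2-fold in young wild type mice. Mmp2, a matrix protease, led that list with 2.76. Smooth muscle and pericyte genes had 8 of 14 called higher, among them Des, which striated fibres share, and nerve and Schwann cell genes 4 of 13. These calls are against the mean of both tissues. In young wild type mice 2 of the 14, 3 of the 13 and 1 of the 29 matrix genes were 2-fold higher than each tissue. The smooth muscle median was 1.92 against liver and 0.52 against adipose, and the matrix median 1.77 and -0.60.

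Some markers of liver, fat and skin read above the background gauge in the young muscle pool. Hepatocyte markers summed to 11672 to 12119 per muscle array, 373426 to 383194 per liver array and 42684 to 43330 per adipose array, and Alb read 10.94 in muscle, 14.76 in liver and 9.93 in adipose. Of the 23 hepatocyte markers 20 were above the background gauge in muscle, against 23 in liver and 18 in adipose. Those not above it in muscle were Cyp7a1, G6pc and Tdo2. Adipocyte markers summed to 29410 to 29945 in muscle, 14765 to 15091 in liver and 177723 to 185830 in adipose, with all 18 above the gauge in muscle, and Adipoq read 10.29 in muscle, 6.01 in liver and 13.85 in adipose. Of 22 epidermal and sebaceous markers 9 were 2-fold higher and 1 lower in young wild type muscle, with a median difference of 0.43, and 12 were called higher and 0 lower over the 4 cohorts. That median was 2.38 and 2.81 in Myc+/- and wild type mice at 24 months and -0.07 in Myc+/- mice at 5 months. Of the 22 markers 16 were above the gauge in young wild type muscle, against 7 in liver and 9 in adipose. Those not above it in muscle were Krt1, Krt25, Dsc3, Dsg3, Awat1 and Awat2. Counts above the gauge do not by themselves show cells of a type. The median of all genes in muscle, 7.52, also passed it, as did 7 of 10 exocrine pancreas markers. Of 20 macrophage markers 5 were 2-fold lower in young wild type muscle, with a median of -0.66, and 14 were called lower over the 4 cohorts. Ucp1 of brown fat was at background in all 3 tissues (5.55 in muscle, 5.54 in liver and 5.65 in adipose). The part of these cells in the gene differences was not tested.

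The muscle pattern recurred in the other 3 cohorts, which share no pool with the young wild type one. Of the 1099 probe sets at least 2-fold higher than both tissues (5.04% of all), 979 (89.1%) were so again in Myc+/- mice at 5 months, 933 (84.9%) in Myc+/- mice at 24 months and 893 (81.3%) in wild type mice at 24 months, and 827 (75.3%) in all 4 cohorts. Of the 504 lower probe sets (2.31%), 452 (89.7%) were lower again in 5-month Myc+/- mice, 383 (76.0%) in 24-month Myc+/- mice and 268 (53.2%) in 24-month wild type mice, and 241 (47.8%) in all 4. Across genes the muscle differences correlated with those of young wild type mice at 0.98, 0.94 and 0.93 (Pearson, same order), as a description over genes, which are not independent replicates.

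**Figure D5:**
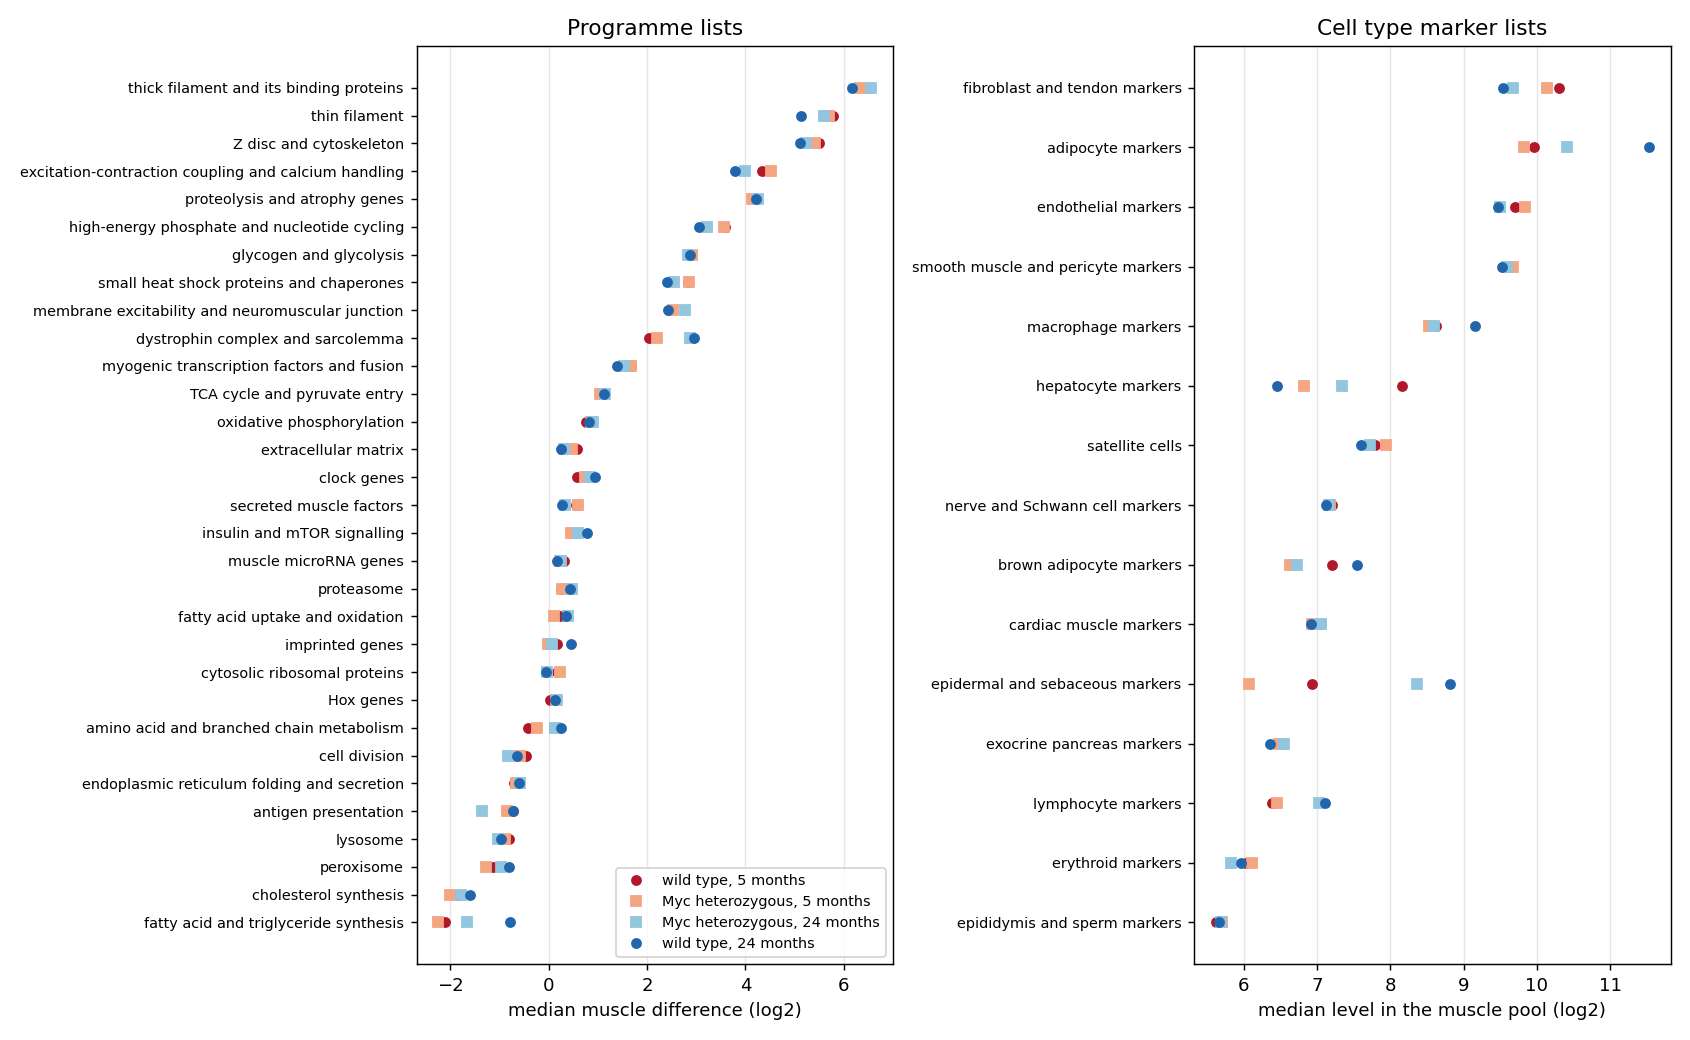
Left, median muscle difference (log2) of each programme list in the 4 cohorts. Right, median log2 level of each cell type marker list in the muscle pool of the 4 cohorts. Squares stand for Myc heterozygous mice, circles for wild type, and reds for 5 and blues for 24 months. The contractile lists keep their place in all 4, while the epidermal list is at 8.36 and 8.82 in the Myc heterozygous and wild type muscle pools of 24 months, against 6.07 and 6.93 at 5 months.

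Between ages the muscle difference changed in 1615 probe sets upward (7.41%) and in 1648 downward (7.56%), as 24 months minus 5 months averaged over both genotypes (limma, adjusted p under 0.05). The epidermal and sebaceous genes Elovl4, a fatty acid elongase, and Krt5, a basal keratin, were among the 5 largest increases, with changes of 3.47 ± 0.20 (SE, adjusted p = 0.00059) and 3.08 ± 0.25 (adjusted p = 0.0017). Krt5 stood at 9.48 and 9.87 in the 24-month muscle pools of Myc+/- and wild type mice, against 5.98 and 7.27 in their 5-month pools, and the epidermal marker list moved with it in the same pools. The part of skin cells in these changes was not tested. The other increases were Serpina3b (3.93), which is also on the epidermal and sebaceous list, Rnase2a (3.26) and Serpinb5 (3.09). Rnase2a moved through adipose, at 7.67 and 6.75 in the 24-month adipose pools of Myc+/- and wild type mice, against 12.26 and 10.56 in their 5-month pools. Largest among the decreases were Ngp, a neutrophil granule protein (-2.47), Prg4, the joint lubricant (-2.29), Dmbt1 (-2.10), Chad (-2.08) and Slc22a26 (-1.99). Ngp moved through liver, which read 10.18 and 9.59 at 24 months in Myc+/- and wild type mice, against 5.82 and 5.97 at 5 months, while its muscle level stayed between 5.71 and 6.34.

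All 10 of the lowest genes of young muscle had a muscle difference nearer 0 at 24 months. They were picked as the lowest in 5-month wild type mice, a cohort within the age contrast, and such picking favours a change toward 0. For Pck1 the change was 2.16 ± 0.31 (SE, limma, adjusted p = 0.0079), with muscle pools at 9.38 in Myc+/- and 11.14 in wild type mice at 24 months, against 7.96 and 8.51 at 5 months. Adipocyte markers had medians of 10.41 and 11.53 in those same 24-month muscle pools, against 9.83 and 9.95 at 5 months, and the part of fat cells in the change was not tested. Of the leading 20 genes 15 had no change with age that passed the test. Pvalb (0.37), Myoz1 (0.39) and Mybpc2 (0.57) passed upward, and Apobec2 (-0.49) and Myoz2 (-0.75) downward, all of them small beside differences of about 7. Among the metabolic genes named above, Ldhb changed by -0.84 ± 0.14 (adjusted p = 0.012), Fabp3 by -1.07 ± 0.29 (adjusted p = 0.048) and Tbx15, among the regulators, by 0.85 ± 0.11 (adjusted p = 0.0066).

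With genotype, limma called 0 probe sets with a changed muscle difference at an adjusted p under 0.05, while 1515 had an unadjusted p under 0.05. Myc itself read 9.00, 8.97 and 8.91 in young wild type muscle, against 8.61, 8.43 and 8.68 in liver and 9.66, 9.88 and 9.56 in adipose, which put muscle between the others with a difference of -0.18 ± 0.07 (SE over arrays).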

How the data were processed

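RNA of 12 pools (3 tissues, 2 ages, 2 genotypes) was measured on 36 arrays, 3 per pool. The values deposited by the authors are log2 levels, made with RMA and Affymetrix Expression Console, per the submitters' processing notes; the settings are not given in the sources used here. No further normalization was applied. Of 35556 probe sets, 21789 carried 1 gene symbol in the platform annotation and were analysed, 1621 carried several and 12146 were not listed. The Entrez identifiers of 21698 were found in a RefSeq table (GRCm38.p6). A gene is represented by its probe set with the highest mean over the 12 pools.

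The arrays of a pool are technical, so they were averaged, and limma (3.58.1, R 4.3.3, eBayes with an intensity trend) was fitted to the 12 pool means with terms for tissue and cohort (6 residual and 3.2 prior degrees of freedom). The cohort is a block because, per the labels, the same animals gave all tissues. Deviations of muscle and liver within a cohort correlated at 0.331 to 0.439, and those of muscle and adipose at 0.026 to 0.0709. A gene was called at a Benjamini-Hochberg adjusted p under 0.05 and 2-fold. This p sets the mean difference against the variation that the tissue and cohort terms left among the 12 pools. The 4 cohorts differed in age and genotype. Changes with age and genotype were fitted to the muscle difference of the 4 cohorts, as a tissue by age and a tissue by genotype term (3 residual and 4.18 prior degrees of freedom). All fits ran over the 21789 probe sets. The cohort fit and the age contrast were tested on simulated data, and the genotype contrast was not. The number of arrays limits the precision, with a median SE of 0.07 for a young wild type difference, and tells nothing of the spread between mice. Arrays of a pool correlated at 0.994 to 0.997 on average.

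The 46 gene lists (984 entries, 894 on the array), the 47 families, the tests and the comparison itself were chosen with earlier results of these data known. Named are the 20 highest and 10 lowest genes, up to 4 members of each list with the largest differences, the family members, Myc, the 5 genes in each direction that changed most with age and the highest marker of each cell type list. Other names were chosen after their values were seen: Mylpf, Myl2, Myl3, Myom1, Myh8, Myh3, Myh7, Acta1, Tpm3, Kbtbd13, Trdn, Chrng, Agrn, Utrn, Myod1, Myog, Mymk, Mymx, Prox1, Pax7, Hoxa9, Hoxa10, Hoxa13, Hoxc9, Hoxd9, Hoxa11, Gamt, Fbxo32, Trim63, Foxo1, Foxo3, Hsp90aa1, Igf1, Insr, Mtor, Mir1a-2, Mir133a-1, Mir181b-2, Mir1839, Fasn, Tbx5, Nppa, Alb, Cyp7a1, G6pc, Tdo2, Adipoq, Krt1, Krt25, Dsc3, Dsg3, Awat1 and Awat2. Alternatives were other scalings, fold thresholds, filters and models, and leaving out arrays or cohorts.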

Additional observations from a re-analysis of the deposited data

Results flagged for a closer look

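The muscle difference of 5 of the 20 leading genes changed with age, given as 24 months minus 5 months with the adjusted p of the limma fit. Pvalb (0.37, adjusted p = 0.0339), Myoz1 (0.39, adjusted p = 0.0197) and Mybpc2 (0.57, adjusted p = 0.0101) changed upward, Apobec2 (-0.49, adjusted p = 0.022) and Myoz2 (-0.75, adjusted p = 0.0242) downward. Mybpc2 moved in the muscle pools themselves, at 13.62 and 13.66 at 24 months in Myc+/- and wild type mice, against 13.16 and 13.19 at 5 months. Pvalb did not: its muscle pools stood between 14.32 and 14.38 in all 4 cohorts, while liver in Myc+/- and wild type mice read 6.04 and 6.46 at 24 months, against 6.74 and 6.95 at 5 months.

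All 10 of the lowest genes changed upward, which brought muscle nearer to the other tissues: Pck1 by 2.16, Ces1f by 2.04 (adjusted p = 0.0156), Gys2 by 1.90 (adjusted p = 0.00568), Sucnr1 by 1.51 (adjusted p = 0.0139), Rbp4 by 1.48 (adjusted p = 0.00292), Cd1d1 by 1.47 (adjusted p = 0.0107), Orm1 by 1.47 (adjusted p = 0.00701), Aldh1a7 by 1.35 (adjusted p = 0.0225), Pcbd1 by 0.86 (adjusted p = 0.0119) and Gsta3 by 0.73 (adjusted p = 0.0323). These genes were picked as the lowest at 5 months in wild type mice, and that cohort is part of the age contrast. For Ces1f the muscle pools stood at 7.44 and 9.74 at 24 months in Myc+/- and wild type mice, against 6.52 and 7.25 at 5 months.

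Probe sets without a single gene name also held muscle signal. Of 12146 that the annotation does not list, 173 (1.42%) were at least 2-fold higher in young wild type muscle than in each other tissue, up to a difference of 5.99 against their mean, and 89 of them were so in all 4 cohorts. Of 1621 with several symbols, 22 (1.36%) were higher and 16 of these in all 4 cohorts.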

How the results depend on the processing

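Counts of probe sets depend above all on the fold threshold. At 1.5-fold, 3082 were higher and 2940 lower in young wild type muscle than the mean of liver and adipose, 1942 and 1268 than each tissue, and limma called 3013 and 3061 over the cohorts. At 4-fold these counts were 620 and 560, 456 and 99, and 603 and 563. With arrays shifted to equal ribosomal protein medians they were 1435 and 1899, 943 and 594, and 1648 and 1639, and with arrays centred on their median 1574 and 1716, 1023 and 541, and 1586 and 1688. With the adjusted p alone limma called 5658 higher and 6694 lower. Without 1 technical replicate in turn, the 2-fold counts were 1667 to 1717 higher and 1587 to 1620 lower against the mean, and 1080 to 1120 and 491 to 515 against each tissue. Without 1 cohort or 1 replicate in turn, limma called 1603 to 1668 higher and 1574 to 1708 lower. Without the cohort as a replicate block it called 1628 and 1644, and the block changed no count by over 1.5 times. The technical replicate numbers of young wild type arrays do not pair across tissues (correlations of -0.112 to 0.147). Probe sets changed with age numbered 2539 to 2703 without 1 replicate, and those changed with genotype 0 to 1 (1 without replicate 1). Reversed were the difference of Hk1 (-0.11, or 0.215 as the mean of its probe sets) and, with arrays shifted to equal ribosomal protein medians, the medians of the Hox genes (-0.10) and the cardiac markers (-0.0212). That shift moved all differences by -0.13, so values within about that distance of 0 have no settled sign, and the cause was not tested. Signal near background limits what is known of low genes, and 1 pool per tissue and cohort limits every statement about mice.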

Other observations

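Marker lists of the remaining cell types had median differences from -0.66 (adipocyte) to 0.55 (endothelial), against -0.07 over all genes. Exocrine pancreas (median difference -0.08 over 10 genes) and epididymis and sperm markers (-0.24 over 12) had 0 called in either direction by limma, with 7 and 2 above the background gauge in young wild type muscle. Lymphocyte markers had 4 of 14 called lower over the 4 cohorts (2 at 2-fold in young wild type mice), and erythroid markers 1 of 6, which was Alas2 (-2.04), the heme enzyme of red cells. Of 20 endothelial markers 3 were 2-fold higher in young wild type mice and 1 was called higher over the cohorts, the VEGF receptor Flt1 (1.33), and 1 lower, Fabp5 (-1.87), and all 20 were above the gauge in muscle with a median of 0.55. The endothelial median was 1.19 against liver and -0.18 against adipose. The brown adipocyte list had 4 of 12 called higher and 3 lower. Its higher members included the oxidase subunits Cox8b (5.46) and Cox7a1 (5.17), which muscle shares with brown fat. Of 18 adipocyte markers 3 were called higher and 4 lower than the mean of liver and adipose, with the fat cell regulators Cebpa (-3.25) and Pparg (-1.63) on the lower side. Their median was 2.14 against liver and -3.23 against adipose. In young wild type mice 0 of the 18 were 2-fold higher than both tissues and 2 were lower than both. Of 6 listed muscle microRNA genes on the array 2 were called higher, with a list median of 0.30. Mir1a-2 (4.40) and Mir133a-1 (3.59), also on the array, were not among these 6.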
